A study of Mus musculus with 12 samples.

Results

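The cytosolic ribosomal protein genes were followed in large peritoneal macrophages, which live in the peritoneal cavity of the mouse from early life on. The genes were taken by name: protein-coding genes with an Rpl, Rps or Rplp symbol in the GENCODE vM21 annotation, without pseudogenes and without the S6 kinases, and with a mean raw count of at least 50 over the 12 libraries. Of 83 genes with such a name, 78 met the count, among 57010 gene rows in all. They were 30 proteins of the small (40S) subunit, 45 of the large (60S) subunit and the 3 stalk proteins Rplp0, Rplp1 and Rplp2. Rpl36al was the gene just inside the limit, with a mean of 77 counts, and Rps10 was just outside it with 17.8. The other genes left out were Rpl39l (14.4), Rpl24 (8.58), Rpl3l (5.58) and Rpl10l (0.333). The exons of Rpl24 and Rps10 are shared with the annotated genes Gm28037 and RPS10-NUDT3 on the same strand, so their low counts are uncertain.

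A cytosolic ribosome holds 1 copy of nearly every one of these proteins and several copies of the stalk dimers, and its parts are made in parallel. Ribosomal protein mRNAs are among the most abundant in most cells. Many of them begin with a terminal oligopyrimidine (TOP) tract, an unbroken run of C and T that opens with a C at the transcription start. Through this tract their translation is coupled to mTORC1, a kinase complex that senses nutrients and growth factors. Assembly of the subunits takes place in the nucleolus with ribosomal RNA made by RNA polymerase I, and requires many factors that leave the finished ribosome.

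The study asked how gene expression in these macrophages changes after phagocytosis when Tim4 is present or missing. Tim4, encoded by Timd4, is a scavenger receptor that binds phosphatidylserine on dying cells. The 4 groups, WT or Tim4KO and naive or ID8, had 3 libraries each. The labels give no treatment for naive mice and no age. ID8 mice were 8 weeks old when they were injected intraperitoneally with ID8, a mouse ovarian tumour line that here carried ZsGreen and ovalbumin, and their cells were taken 24 h later. All mice were female, all cells were sorted as F4/80 high and MHC class II low, and challenged cells were also sorted as positive for ZsGreen. Challenge and uptake were therefore measured together. The labels do not say that each library came from its own animal, so p-values measure the spread between these libraries.

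Library totals ran from 7358559 to 23170244 counts. Timd4 had 1178, 1279 and 1489 CPM (a gene's count divided by the TMM-scaled library size in units of 1e6) in WT naive and 1115, 1452 and 882.5 in WT ID8. It had 7.71, 7.32 and 7.21 CPM in Tim4KO naive and 1.92, 1.85 and 1.38 in Tim4KO ID8, in keeping with every label. Levels of cell type markers, cell cycle genes and background, here and below, are instead counts per 1e6 of the library total, without TMM factors. The summed level of 8 large peritoneal macrophage markers, with Lyz2 the highest, was 51658 to 56644 CPM in naive and 20787 to 23533 in challenged libraries. The 8 epithelial or tumour markers summed to 5.51 to 26.1 CPM in naive and 1.51 to 5.03 in challenged libraries, and Msln stayed under 1 CPM in every library. Markers of other cells were low, but several lists differed between naive and challenged libraries without overlap. B cell markers summed to 7.78 to 21.4 CPM in naive and 2.92 to 7.52 in challenged libraries, mast cell markers to 12.5 to 36.1 and at most 8.75, and small macrophage or dendritic cell markers to 53.6 to 78.7 and 12.1 to 42.3. Neutrophil markers were higher after challenge, at 9.11 to 24.4 against 5.07 to 7.71 CPM, with Ly6g, Camp and Ngp under 1 CPM in every library. T and NK cell markers overlapped, at 2.68 to 8.15 CPM. The part of these levels in the challenge results was not tested. WT ID8 3 stood apart, with 2395 CPM of 12 cell cycle genes against 186 to 647 in the other 11 libraries and 5.57 CPM of olfactory and vomeronasal receptor genes, used as a measure of background, against 39.5 to 862. Reads of mitochondrially encoded genes made up 1.17% to 3.82% of a library.

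The 78 genes together took 2.95% to 4.07% of all counts. Their share was 4.07%, 4.04% and 3.73% in WT naive (3.95% ± 0.189, SD, n = 3), and 3.26%, 2.95% and 3.65% after challenge (3.29% ± 0.348). Tim4KO libraries had 3.72%, 3.23% and 3.03% when naive (3.33% ± 0.357), and 3.29%, 3.45% and 3.28% after challenge (3.34% ± 0.093). The WT naive libraries were highest and lay just above Tim4KO naive 1. The other groups overlapped one another. In bulk libraries such as these, fewer cells that carry an mRNA and less of it per cell cannot be told apart.

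**Figure D1:**
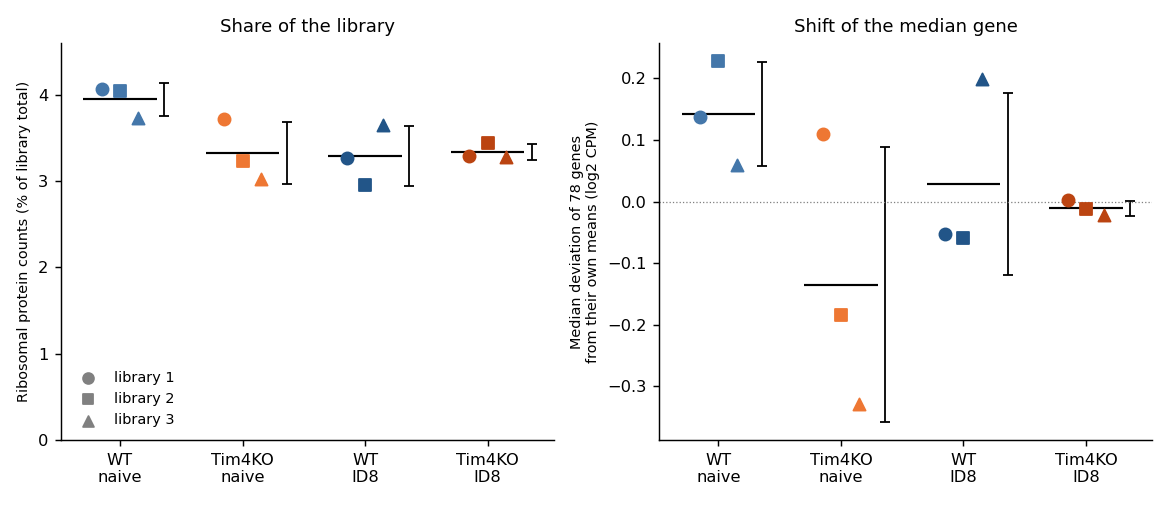
Left, counts of the 78 ribosomal protein genes as a percentage of each library's total. Right, median over the 78 genes of each gene's log2 CPM minus its own mean over the 12 libraries. Points are libraries, lines are group means and bars are ± 1 SD (n = 3). The WT naive libraries had the highest shares, 3.73% to 4.07%, and Tim4KO naive 3 had the lowest median, -0.33.

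Library by library, the genes moved together in some libraries more than in others. The median gene stood 0.14, 0.23 and 0.06 above its own 12-library mean on the log2 scale in the WT naive libraries. In Tim4KO naive it stood at 0.11, -0.18 and -0.33, and in the third of these libraries 77 of the 78 genes were below their own mean. WT ID8 gave -0.05, -0.06 and 0.20, the last of these in the library with the high cell cycle genes. The Tim4KO ID8 libraries lay within 0.03 of the mean, at 0.00, -0.01 and -0.02, and in the first of them 40 genes were above their own mean and 38 below. The correlation of a gene with the median of the other 77 over the 12 libraries had a median r of 0.703, and 64 genes exceeded 0.5. It was highest for Rps15 (0.95), a 40S protein near the decoding site, and lowest for Rpl7l1 (-0.06). These correlations describe 12 libraries that share preparation and scaling. Their part in any difference between groups, like that of the cell cycle and background levels, was not tested.

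For 67 of the 78 genes the highest library was under 2 times the lowest, and the median of that ratio was 1.64. It was widest for Rpl36al (4.81, with 7.69 CPM at most), followed by Rps27 (2.87), Rpl7l1 (2.54) and Rpl35 (2.52). Per kilobase of the principal transcript, the highest mean levels belonged to Rps27 (2094 CPM per kb), Rpl32 (1919) and Rps19 (1891). The lowest belonged to Rpl36al (10.8), Rpl13a (20.8) and Rpl23a (85.6). Ribosomal protein genes have many processed copies in the genome (291 pseudogene rows carry such names here). How reads shared with such copies were assigned is not given in the sources used here, so low values are uncertain. The exons of 18 genes overlap a gene on the other strand in the annotation, and the handling of strand is not given either.

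The start regions of 8 genes that passed a test below are shown because the TOP tract is the sequence these mRNAs are known for. RefSeq promoter sequences (GRCm38.p6) were found for 58 of the 78 genes. Each line gives 20 bases before and 10 bases from the annotated start, 5′ to 3′ on the gene's own strand. Capitals mark the first base and the unbroken run of C and T that follows it.
Rps27, chr3:90213639-90213668, minus strand: acaggatttccgctttcgctCCTTTCCggc
Rpl35, chr2:39005122-39005151, minus strand: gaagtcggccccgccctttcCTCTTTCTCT
Rpl38, chr11:114668560-114668589, plus strand: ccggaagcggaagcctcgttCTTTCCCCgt
Rplp2, chr7:141447631-141447660, plus strand: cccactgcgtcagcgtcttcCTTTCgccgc
Rps27l, chr9:66946066-66946095, plus strand: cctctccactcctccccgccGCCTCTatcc
Rps21, chr2:180257359-180257388, plus strand: gcacttaccgaggacccgccCTCCTgccca
Rps2, chr17:24720043-24720072, plus strand: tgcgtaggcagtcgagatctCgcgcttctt
Rpl7l1, chr17:46782647-46782676, minus strand: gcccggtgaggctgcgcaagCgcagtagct
Rps27, Rpl35, Rpl38, Rplp2 and Rps21 open with a tract, taken as a C followed by at least 4 letters that are each C or T. Rps27l, Rps2 and Rpl7l1 do not at these starts, and Rps27l and Rps21 each have a further annotated start without one. Such a tract stood at a start of 12 of the 58 genes (20.7%) and of 3.01% of the 27025 gene symbols in the RefSeq table. Searched anywhere within 10 bases of the start on the transcribed strand, it was found for 35 genes (60.3%) against 34.4% of all symbols. Annotated starts can miss the main start by some bases, so a missing tract says only that these letters are not at that position.

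Challenge was followed by opposite changes of Rps27 and its paralogue Rps27l in both genotypes. Rps27 is a zinc-finger protein of the 40S subunit, and Rps27l is a closely related protein whose human counterpart is a known p53 target. Their coding sequences share 73.1% of 253 aligned bases. Rps27 stood at 1003, 1138 and 1057 CPM in WT naive and at 414, 396 and 583 in WT ID8. In Tim4KO it stood at 1006, 817 and 731 naive and at 514, 487 and 522 after challenge. Every challenged library was below every naive library.

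The log2 fold change of Rps27 was -1.20 (SE 0.16) in WT, with an edgeR adjusted p of 9.37e-05, and -0.74 (SE 0.16) in Tim4KO, with an edgeR adjusted p of 0.00502. Rps27l stood at 156, 147 and 134 CPM in WT naive and at 212, 240 and 237 in WT ID8. In Tim4KO it stood at 151, 96.0 and 106 naive and at 222, 208 and 203 after challenge. Here every challenged library was above every naive library. Rps27l rose by 0.66 (SE 0.15) in WT and by 0.84 (SE 0.15) in Tim4KO on the log2 scale, with edgeR adjusted p-values of 0.00449 and 0.00176.

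Per kilobase, Rps27 was 10.6 ± 1.16 times as abundant as Rps27l in WT naive libraries (SD, n = 3) and 10.7 ± 1.44 times in Tim4KO naive. The ratio was 2.92 ± 0.587 in WT ID8 and 3.49 ± 0.207 in Tim4KO ID8. It ran from 9.31 to 12.3 over the 6 naive libraries and from 2.39 to 3.73 over the 6 challenged ones, so naive and challenged libraries did not overlap. This ratio was computed after the values of both genes had been seen.

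In WT cells, challenge was followed by a call for 17 of the 78 genes, 6 higher and 11 lower, at an adjusted p under 0.05 over all genes tested. That was 21.8% of the genes, against 31.8% of all 15943 genes tested (19.5% higher and 12.3% lower). The median log2 change of the 78 genes was -0.11, against -0.04 for all genes, with 49 of them below 0 and 29 above, where 52% and 48% of all genes were. That median was 0.01 without WT ID8 1. For 66 of the 78 the change was smaller than 0.5 on the log2 scale. Between the groups, 17 genes were lower without overlap and 9 were higher without overlap, where 21% and 23.3% of all genes were. The split of calls depended on scaling: it was 6 higher and 11 lower with TMM, 4 and 14 with DESeq2 size factors and 3 and 36 with upper-quartile factors. DESeq2 size factors thus gave 18 calls among the 78, where 31.2% of all genes were called. Upper-quartile factors gave 39, where 33.3% of all genes were called. Upper-quartile factors moved the median of all genes in this comparison to -0.28. With a library left out, the share of all genes called in the same fit is given in brackets. The count of calls was 7 without WT naive 2 (23.8%) or without WT ID8 2 (21.1%). It was 9 without WT naive 3 (19.8%) and 10 without WT naive 1 (22.2%). It was 11 without WT ID8 1 (41.6%) and 25 without WT ID8 3 (29.4%).

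**Figure D2:**
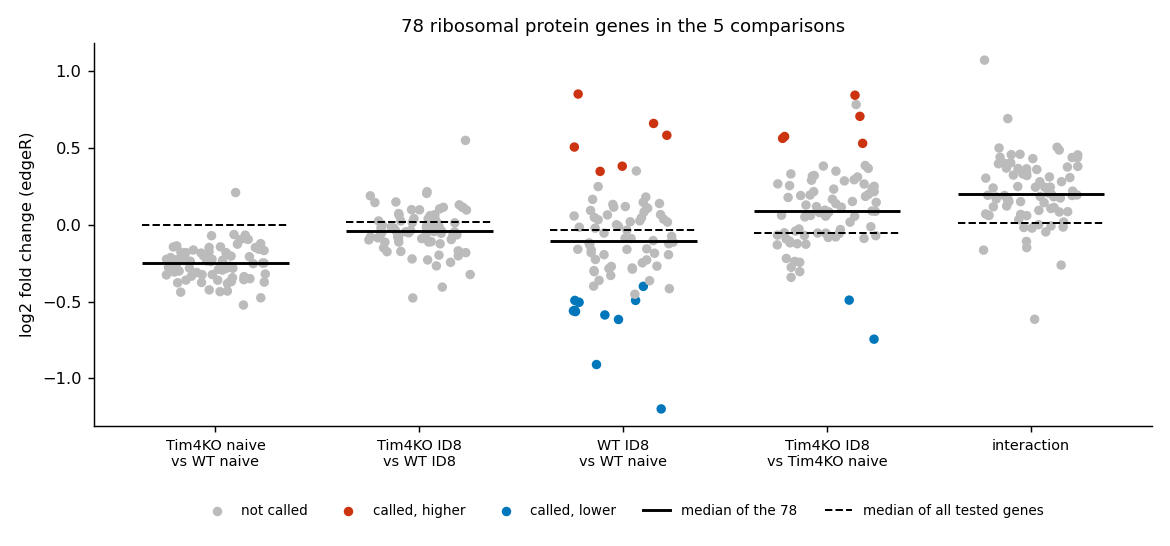
Log2 fold changes (edgeR) of the 78 ribosomal protein genes in the 5 comparisons, 1 point per gene. Coloured points passed an adjusted p under 0.05, solid lines are medians of the 78 genes and dashed lines medians of all tested genes. The 2 genotype comparisons and the interaction have 0 coloured points, and the solid line lies below the dashed one by the most in Tim4KO naive against WT naive, at -0.25.

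Among the genes that rose in WT, Rpl7l1 had the largest change. It is a relative of Rpl7 that acts in the assembly of the 60S subunit. Rpl7l1 stood at 152, 187 and 151 CPM in WT naive and at 291, 385 and 209 in WT ID8, without overlap (log2 change 0.85, SE 0.19, edgeR adjusted p = 0.00415). In Tim4KO it stood at 213, 201 and 154 naive and at 219, 243 and 206 after challenge, and these groups overlapped (log2 change 0.23, SE 0.19, edgeR adjusted p = 0.443). The difference between the 2 responses was -0.62 (SE 0.27) with an edgeR adjusted p of 0.668, so a difference was not shown. Rpl7, the canonical subunit, did not pass the test in either genotype, with -0.23 in WT and -0.24 in Tim4KO.

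Rpl29, a 60S protein, and Rps2, which lines the mRNA entry of the 40S subunit, rose in both genotypes. Rpl29 stood at 173, 194 and 188 CPM in WT naive and at 264, 275 and 293 in WT ID8. Its Tim4KO values were 208, 168 and 147 naive and 271, 270 and 236 after challenge. Neither genotype showed overlap, and the log2 changes were 0.58 and 0.57 (SE 0.13 each), with edgeR adjusted p-values of 0.00446 and 0.00873. Rps2 stood at 1009, 1005 and 871 CPM in WT naive and at 1270, 1434 and 1392 in WT ID8, and at 1007, 768 and 695 in Tim4KO naive and 1366, 1408 and 1253 in Tim4KO ID8. Its groups did not overlap either, and the log2 changes were 0.51 in WT and 0.71 in Tim4KO (SE 0.14 each), with edgeR adjusted p-values of 0.0147 and 0.00378. By edgeR the WT call of Rps2 was lost with upper-quartile factors (adjusted p = 0.124), with only the WT groups fitted, with background as a covariate and without WT naive 3. The WT call of Rpl29 was lost with background as a covariate (edgeR adjusted p = 0.062), and its Tim4KO call without Tim4KO naive 3 (edgeR adjusted p = 0.0663).

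Rpl6, a 60S protein, and Rps27a, which is made as a fusion with ubiquitin, were called in WT with smaller changes. Rpl6 had 360 ± 28.1 CPM in WT naive and 469 ± 42.9 in WT ID8 (log2 change 0.38, SE 0.12, edgeR adjusted p = 0.0299). Rps27a had 448 ± 24.1 and 570 ± 43.6 CPM (log2 change 0.35, SE 0.13, edgeR adjusted p = 0.0464). Both calls were lost with DESeq2 and with upper-quartile factors (adjusted p = 0.273 for Rpl6 and 0.432 for Rps27a, edgeR). Both were lost as well with only the WT groups fitted and with background as a covariate. The Rpl6 call was also lost without WT naive 1, WT naive 3 or WT ID8 2. The Rps27a call stood in 4 of the 12 fits that left out a library and was lost with the replicate number as a block (edgeR adjusted p = 0.0523).

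Of the genes that fell in WT after Rps27, Rpl35 had the largest change. Rpl35 sits at the rim of the tunnel through which the nascent chain leaves the 60S subunit. It stood at 151, 165 and 145 CPM in WT naive and at 94.5, 65.6 and 86.0 in WT ID8, without overlap (log2 change -0.91, SE 0.16, edgeR adjusted p = 0.000915). In Tim4KO it stood at 135, 91.5 and 106 CPM naive and at 88.2, 88.8 and 108 after challenge, with overlap (log2 change -0.22, SE 0.16, edgeR adjusted p = 0.399). For the interaction, Rpl35 (0.69, SE 0.23) had the smallest unadjusted p of the 78 genes, 0.00899, and it had an edgeR adjusted p of 0.668. Exons of Rpl35 overlap those of Arpc5l and Wdr38 on the other strand in the annotation.

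Other genes called lower in WT came from both subunits. In the 40S subunit they included Rps14 (log2 change -0.62), Rps21 (-0.59), Rps12 (-0.50) and Rps9 (-0.49). Rps14 is the gene whose loss of 1 copy is linked to anaemia in a human myelodysplastic syndrome, Rps9 lies near the mRNA entry, and Rps12 belongs to the beak of the 40S subunit. In the 60S subunit they included Rpl30 (-0.57), Rpl32 (-0.49) and Rpl13 (-0.40). The edgeR adjusted p-values of these genes ran from 0.00707 for Rps9 to 0.0427 for Rpl32, and none of them showed overlap between the WT groups. Rps12 was called in 2 of the 12 fits that left out a library, while Rps14, Rps21 and Rpl30 were called in 8 to 10. The calls of these 4 genes were all lost without WT naive 2 and without WT ID8 2. Rps27 and Rpl35 kept their lower calls in all 12 fits. Without WT naive 2 only 2 ribosomal protein genes were called lower, so Rps9, Rpl32 and Rpl13 lost their calls there too. Without WT ID8 2 only 3 were called lower, so at most 1 of Rps9, Rpl32 and Rpl13 kept its call. Rps14 was also lost without WT naive 1 or WT ID8 1, and Rps21 without WT naive 3. With background as a covariate the calls of Rpl30 and Rps12 were lost. The highest edgeR adjusted p over all alternatives was 0.102 for Rps14, 0.0979 for Rps21, 0.0962 for Rpl30 and 0.215 for Rps12.

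**Figure D3:**
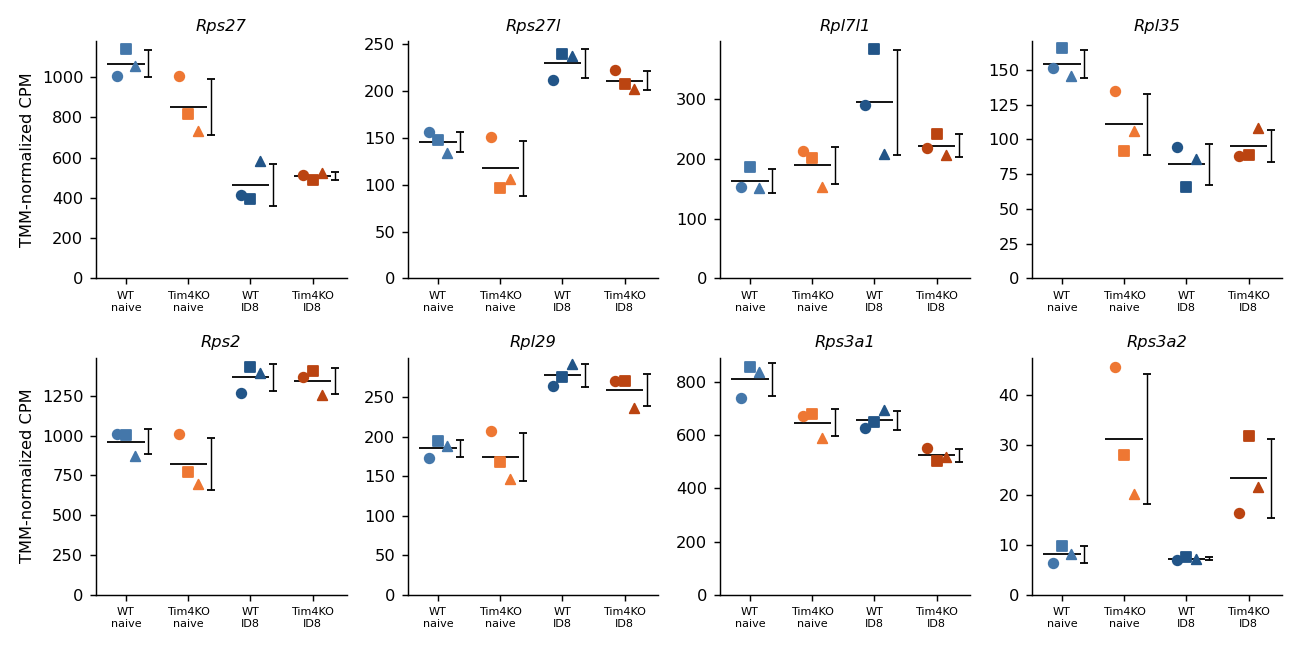
TMM-normalized CPM of 8 genes in every library. Points are libraries (circle, square and triangle for libraries 1, 2 and 3), lines are group means and bars are ± 1 SD (n = 3). Rps27 was lower and Rps27l higher in all 6 challenged libraries than in all 6 naive ones, and Rps3a2 was higher in all 6 Tim4KO libraries than in all 6 WT libraries.

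In Tim4KO cells, 7 of the 78 genes were called after challenge, 5 higher and 2 lower. That was 8.97%, against 16.6% of all tested genes (11.5% higher and 5.06% lower). An unadjusted p under 0.05 was reached by 18 of the 78 and 29.9% of all genes. The median change of the 78 was 0.09, against -0.05 for all genes, and 28 were below 0, where 53.8% of all genes were. With upper-quartile factors the median was -0.02, against -0.17 for all genes. Without Tim4KO naive 1 the count was 19 and the median 0.26, where 16.4% of all genes were called. Without Tim4KO naive 3 the count was 4 and the median 0.024, where 8.82% of all genes were called. Leaving out Tim4KO naive 2 or any of the 3 Tim4KO ID8 libraries gave 4 calls as well, where 7.04% to 9.6% of all genes were called. DESeq2 size factors gave 3 higher and 4 lower, and upper-quartile factors gave 3 and 5, where 16% and 17% of all genes were called. Between the groups, 12 genes were higher without overlap and 4 lower without overlap, where 23.7% and 18.1% of all genes were.

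Besides Rps27l, Rps2 and Rpl29, the genes that rose in Tim4KO were Rpl38 and Rplp2. Rpl38 is a 60S protein known from a mouse mutant with skeletal patterning defects. It stood at 285, 168 and 189 CPM in Tim4KO naive and at 321, 305 and 322 in Tim4KO ID8, without overlap (log2 change 0.56, SE 0.17, edgeR adjusted p = 0.0375). Its WT values overlapped, at 280, 283 and 244 naive and 282, 257 and 344 after challenge (0.13, SE 0.17, edgeR adjusted p = 0.561). The calls of Rpl38 and Rplp2 were lost with DESeq2 and upper-quartile factors, and without Tim4KO naive 2, Tim4KO naive 3 or any 1 of the Tim4KO ID8 libraries (edgeR adjusted p at most 0.183 and 0.171).

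The stalk proteins Rplp0, Rplp1 and Rplp2 form the flexible arm of the 60S subunit that receives the elongation factors. Rplp2 stood at 394, 259 and 250 CPM in Tim4KO naive and at 446, 430 and 428 in Tim4KO ID8, without overlap (log2 change 0.53, SE 0.16, edgeR adjusted p = 0.0365). Rplp0, which anchors the arm, had 538 ± 109 and 702 ± 28.6 CPM in the same groups (0.39, SE 0.14, edgeR adjusted p = 0.0829). Rplp1, the partner of Rplp2, had 346 ± 75.7 and 379 ± 21.4 CPM (0.13, SE 0.16, edgeR adjusted p = 0.64). In WT none of the 3 passed the test, with changes of 0.15, -0.33 and 0.09 for Rplp0, Rplp1 and Rplp2.

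The WT and Tim4KO challenge comparisons use different libraries. In both, 5 genes were called, Rpl29, Rps2, Rps27 and Rps27l among them, which is 29.4% of the 17 genes called in WT and 71.4% of the 7 called in Tim4KO. All 5 had the same direction in both, 3 higher and 2 lower. Of all tested genes, 2107 were called in both, 41.6% of the WT list and 79.8% of the Tim4KO list, and 100% of them had the same direction. Over all 78 genes, 57 (73.1%) had the same sign in both genotypes, where 81.3% of all tested genes did.

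**Figure D4:**
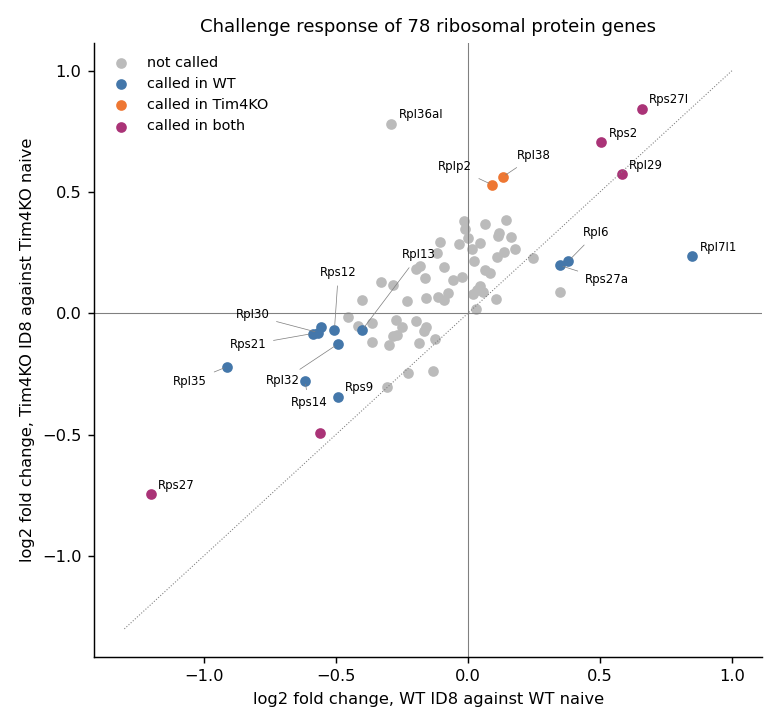
Log2 fold change after challenge in WT (x axis) against Tim4KO (y axis) for the 78 genes, with the line of equal change dotted. Colours show in which genotype a gene passed an adjusted p under 0.05, most of these genes are labelled, and Rpl36al, the gene with the lowest counts, is labelled although it was not called. Rps27 lies lowest at -1.20 and -0.74, and Rps27l lies highest among the genes called in both.

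No gene of the 78 was called for the interaction, the Tim4KO response minus the WT response. By edgeR 0% of all genes were called, 5 of the 78 genes had an unadjusted p under 0.05, where 7.44% of all genes did, and DESeq2 called 0 of the 78 as well. The median interaction of the 78 was 0.20, against 0.01 for all genes, and 68 were above 0, where 50.9% of all genes were. Leaving out Tim4KO naive 3 moved that median to 0.083, and leaving out Tim4KO naive 1 moved it to 0.34. It was 0.11 without WT ID8 1 and 0.29 without WT ID8 3, a fit in which 2.12% of all genes and still 0 of the 78 were called. The 5 genes with the smallest p were Rpl35, Rpl7l1, Rpl36al, Rpl30 and Rps21. Rpl36al, at 4.17 ± 2.49 CPM in Tim4KO naive and 7.35 ± 0.481 in Tim4KO ID8, had an interaction of 1.07 (SE 0.50).

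Between genotypes in naive cells, 77 of the 78 genes had a lower fitted level in Tim4KO than in WT, where 50.5% of all genes did. The median log2 change was -0.25, against -0.00 for all genes. None of the 78 was called, and 0.0439% of all genes were (0.0251% higher and 0.0188% lower). An unadjusted p under 0.05 was reached by 21 of the 78, where 6.27% of all genes did, and DESeq2 called 0 of the 78. In 12 genes all Tim4KO naive libraries were below all WT naive libraries, where that held for 6.84% of all genes, and in 0 genes were they all above, where 7.34% were. With DESeq2 size factors the median was -0.27, and with upper-quartile factors it was -0.30. It rested partly on single libraries, with -0.15 without Tim4KO naive 3 and -0.37 without Tim4KO naive 1. The genes do not vary independently, so the count of 77 is not 77 separate observations. In the same libraries B cell markers summed to 13.3 to 21.4 CPM in WT naive and 7.78 to 11.5 in Tim4KO naive, and T and NK cell markers to 5.29 to 6.54 and 3.67 to 4.93, both without overlap. The mitochondrial share was 1.93% to 3.82% in the WT libraries and 1.57% to 2.22% in the Tim4KO ones. The part of these levels in the result was not tested.

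The 5 genes with the smallest p in this comparison were Rpl35, Rps3a1, Rpl12, Rps21 and Rpl28. Rpl35 had the lowest edgeR adjusted p, 0.662, at 154 ± 10.3 CPM in WT and 111 ± 21.9 in Tim4KO (log2 change -0.48, SE 0.16). Rpl12, at the base of the stalk, had -0.44 (SE 0.16), Rps21 had -0.44 (SE 0.17) and Rpl28, a 60S protein, had -0.37 (SE 0.15), with edgeR adjusted p-values of 0.718, 0.722 and 0.732. Only Rpl7l1 had a higher fitted level in Tim4KO, by 0.21 (SE 0.19). By subunit, the medians were -0.25 for the 40S proteins, -0.24 for the 60S proteins and -0.36 for the stalk. The difference between them was not tested. In the lists described below, 14 of 15 elongation factors and other TOP mRNAs were lower in Tim4KO naive too (median -0.09). So were 58 of 77 mitochondrial ribosomal proteins (-0.11) and 4 of 4 ribosomal proteins under other names (-0.26). Higher were 24 of 30 assembly factors (0.19), 9 of 12 RNA polymerase I genes (0.11) and 11 of 16 mTORC1 and MYC genes (0.11).

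The median change of Tim4KO ID8 against WT ID8 was -0.04, against 0.01 for all genes, with 49 of the 78 lower and 29 higher. With upper-quartile factors the median was 0.03 and 50 genes were higher. It was also above 0 without WT ID8 3, at 0.06, and with background as a covariate, at 0.04, and it was -0.13 without WT ID8 1 and -0.09 without WT ID8 2. By edgeR 0 of the 78 genes and 0.0565% of all genes were called (0.00627% higher and 0.0502% lower). Of the 78, 3 had an unadjusted p under 0.05, where 12.1% of all genes did. DESeq2 called 2 of the 78 and 1.66% of all genes. In 16 genes all Tim4KO ID8 libraries were below all WT ID8 libraries, where 8.56% of all genes were, and in 1 gene, Rpl36al, they were above, where 7.06% of all genes were.

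Rps26, a protein at the mRNA exit of the 40S subunit and a Diamond-Blackfan anaemia gene in humans, had the smallest p. It stood at 509, 526 and 422 CPM in WT ID8 and at 352, 337 and 358 in Tim4KO ID8, without overlap (log2 change -0.48, SE 0.13, edgeR adjusted p = 0.205). DESeq2 called Rps26 and Rps3a1, where it called 1.66% of all genes. Without WT ID8 3 edgeR called Rps26 and Rpl7l1, where it called 5.74% of all genes. Rpl7l1 had -0.41 (SE 0.19), Rpl22, an RNA-binding 60S protein required in T cell development, had -0.27 (SE 0.13) and Rps27a had -0.24 (SE 0.13), with edgeR adjusted p-values of 0.409, 0.426 and 0.438.

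Rps3a1, a 40S protein on the solvent side that contacts initiation factors, has near-identical copies. The processed pseudogene Rps3a2 (chromosome 14) matches its 795-base coding sequence at 788 of 792 aligned bases, or 99.5%. Rps3a3 (chromosome 13) matches it at 98.9%. The 30-base windows around 2 of the 4 differing bases show how little separates Rps3a1 from Rps3a2, with the differing base in capitals and positions counted from 1 at the A of the Rps3a1 start codon. They were read from the GENCODE vM21 transcripts, Rps3a1 base first (T216C and A645T).
Rps3a1, coding bases 202 to 231: gaagtgagccttgcTgatctacagaatgat
Rps3a2, the same bases: gaagtgagccttgcCgatctacagaatgat
Rps3a1, coding bases 631 to 660: tttgttagaaaagtAaaaatgctgaagaaa
Rps3a2, the same bases: tttgttagaaaagtTaaaatgctgaagaaa
Reads that cover none of the 4 bases match both genes, and how the authors' counting treated them is not given in the sources used here.

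Rps3a1 had the same fitted genotype difference in both conditions and passed the test in neither. It stood at 740, 857 and 838 CPM in WT naive and at 674, 682 and 590 in Tim4KO naive (log2 change -0.32, SE 0.12, edgeR adjusted p = 0.691). In challenged cells it stood at 627, 649 and 695 CPM in WT and at 551, 505 and 518 in Tim4KO (-0.32, SE 0.12, edgeR adjusted p = 0.298). The genotypes did not overlap in either condition. The row of Rps3a2 went the other way, at 6.39, 9.68 and 8.03 CPM in WT naive against 45.4, 27.8 and 20.2 in Tim4KO naive, and at 6.91, 7.56 and 7.07 in WT ID8 against 16.3, 31.8 and 21.6 in Tim4KO ID8. All 6 Tim4KO libraries were above all 6 WT libraries.

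The log2 change of Rps3a2 was 1.94 (SE 0.29) in naive cells, with an edgeR adjusted p of 0.0395, and 1.69 (SE 0.30) in challenged cells, with an edgeR adjusted p of 0.0568. The naive call was lost by limma voom (adjusted p = 0.222), with only the naive groups fitted, with the background covariate and without any 1 of WT naive 1, WT naive 2, WT naive 3, Tim4KO naive 2, WT ID8 2, WT ID8 3 or Tim4KO ID8 3, with log2 changes of 1.57 to 2.19 over all alternatives. The whole row of Rps3a2 amounted to 59 to 554 counts, and adding the Rps3a2 and Rps3a3 counts to Rps3a1 left the number of ribosomal protein genes called in the genotype comparisons at 0. Rps4l (chromosome 6), a transcribed processed pseudogene whose transcript matches Rps4x at 80.1% of aligned bases, stood at 23.1, 28.6 and 27.2 CPM in WT naive and 18.4, 15.8 and 9.69 in Tim4KO naive. It stood at 32.7, 32.3 and 36.4 CPM in WT ID8 and at 21.6, 18.7 and 21.4 in Tim4KO ID8. The groups did not overlap in either condition, with log2 changes of -0.86 (edgeR adjusted p = 0.261) and -0.72 (edgeR adjusted p = 0.179).

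Other paralogues were set beside their canonical subunits in the same way. Rpl22l1, a relative of Rpl22, had 57.4 ± 4.82 CPM in WT naive and 62.1 ± 18.3 in WT ID8, 47.7 ± 11.7 in Tim4KO naive and 60.2 ± 2.42 in Tim4KO ID8, and passed no test. Per kilobase, Rpl22 was 6.83 ± 0.346 times as abundant in WT naive and 6.17 ± 2.15 times in WT ID8, with overlap. In Tim4KO the ratio was 7.76 naive (5.83 to 11.2 over the libraries) and 4.93 ± 0.281 after challenge (4.61 to 5.12), without overlap. The ratio of Rpl7 to Rpl7l1 was 6.03 ± 0.434 in WT naive and 3.01 ± 0.878 in WT ID8, without overlap. In Tim4KO it was 4.59 ± 0.331 naive and 3.29 ± 0.262 after challenge, also without overlap. The naive libraries of WT and Tim4KO did not overlap in this ratio either. Rpl36a exceeded Rpl36al by 29.6 to 111 times per kilobase, at very low counts of Rpl36al. Rpl9 and Rpl10 share 99.8% and 100% of coding bases with the copies Rpl9-ps6 and Rpl10-ps3, so that their own levels are uncertain.

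Genes of the 5S particle, Rpl5 and Rpl11, which can bind Mdm2 when ribosome assembly is disturbed, were not called in any comparison. Rpl5 had 514 ± 75.2 CPM in WT naive and 553 ± 17.6 in WT ID8, 472 ± 67.7 in Tim4KO naive and 492 ± 16.2 in Tim4KO ID8. Rps6, the 40S protein phosphorylated by S6 kinase, had 498 ± 27.9 CPM in WT naive, 509 ± 27.4 in WT ID8 and 465 ± 71.9 in Tim4KO naive, and 485, 479 and 448 in the Tim4KO ID8 libraries. Of 11 genes linked to Diamond-Blackfan anaemia, 0 were called in any of the 5 comparisons, where 31.8% of all genes were called after challenge in WT, 16.6% in Tim4KO and at most 0.0565% in the other comparisons. Rpsa, Fau and Rack1, ribosomal proteins under other names, were likewise not called, and Rack1, the scaffold on the 40S head, had 493 ± 22.8 CPM in WT naive and 399 ± 63.6 in Tim4KO naive (log2 change -0.31, edgeR adjusted p = 0.734).

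The 58 genes with a promoter sequence were also split by the TOP tract at the annotated start. The 20 genes without a promoter sequence, the called genes Rpl29, Rps14, Rpl30, Rpl32 and Rps27a among them, were left out of the split. In WT the 12 genes with a tract had a median challenge change of 0.03 (0 called higher and 3 lower: Rps27, Rpl35 and Rps21), and the 46 genes without one had -0.12 (4 higher and 3 lower). In Tim4KO the medians were 0.20 (2 higher and 1 lower) and 0.10 (2 higher and 0 lower). Of the genes without a tract at the start, the called genes Rps2, Rps27l and Rpl6 had one within 10 bases of it. The split is therefore by the annotated position and does not separate TOP mRNAs from others. These counts are a description without a test.

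Of 30 ribosome assembly factors, 27 rose in WT (median log2 change 1.21) and 8 in Tim4KO (0.57), and 0 fell in either. Called higher were 90% and 26.7% of the list, against 19.5% and 11.5% of all genes. In WT the smallest p-values belonged to Mrto4, a stand-in for the stalk during 60S assembly, from 17.6 ± 2.77 to 47.7 ± 11.6 CPM (log2 change 1.44, edgeR adjusted p = 0.000105), and to Wdr12, from 21.5 ± 3.95 to 59.9 ± 17.7 CPM (1.47, edgeR adjusted p = 0.000271). In Tim4KO they belonged to Nhp2, of the particles that convert uridine in ribosomal RNA, from 26.1 ± 10.3 to 76.0 ± 5.48 CPM (1.53, edgeR adjusted p = 0.000863), and to Fbl, which methylates ribosomal RNA, from 58.3 ± 14.3 to 121 ± 9.50 CPM (1.05, edgeR adjusted p = 0.00397). All 30 had a positive change in both genotypes and 0 were called for the interaction, whose median was -0.53. The Tim4KO count depended on single libraries, with 3 calls when Tim4KO naive 2 was left out, 5 when Tim4KO ID8 2 was and 23 when WT ID8 3 was.

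Mitochondrial ribosomal proteins build the separate ribosome of the mitochondrion. Of 77 tested, 60 rose and 1 fell in WT (median 0.63), and 51 rose and 0 fell in Tim4KO (median 0.57). Called in either direction were 79.2% and 66.2%, against 31.8% and 16.6% of all genes. Mrpl54 went from 28.1 ± 1.34 to 59.7 ± 4.61 CPM in WT and from 24.5 ± 6.75 to 54.7 ± 3.45 in Tim4KO (log2 changes 1.09 and 1.15, edgeR adjusted p-values 0.000192 and 0.000262). Mrpl51 went from 39.9 ± 3.04 to 87.1 ± 16.4 CPM in WT (1.13, edgeR adjusted p = 7.03e-05). Leaving out Tim4KO naive 3, Tim4KO naive 2 or Tim4KO ID8 1 gave 18, 20 or 30 calls in Tim4KO.

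Of 12 genes for RNA polymerase I and its initiation factors, 5 rose and 0 fell in WT. In Tim4KO, Polr1e and Polr1d rose and Taf1a fell. Those calls were 41.7% and 25% of the list, against 31.8% and 16.6% of all genes. With upper-quartile factors the counts were 2 higher and 2 lower in WT, and 1 higher and 3 lower in Tim4KO. Polr1e, a subunit of the enzyme, went from 5.09 ± 0.475 to 14.7 ± 4.99 CPM in WT (log2 change 1.53, edgeR adjusted p = 0.000881). Leaving out a library gave 2 to 5 calls in WT, the lowest without WT naive 3, with 3 without WT naive 1 or WT ID8 2. It gave 0 to 4 in Tim4KO, with 0 without Tim4KO ID8 3 and 1 without Tim4KO naive 2, Tim4KO naive 3, Tim4KO ID8 1 or Tim4KO ID8 2.

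Among 15 elongation factors and other mRNAs with TOP tracts, 5 rose and 3 fell in WT, and 3 rose and 1 fell in Tim4KO. That was 53.3% and 26.7% of the list, where 31.8% and 16.6% of all genes were called. Upper-quartile factors gave 4 higher and 6 lower in WT and 3 and 3 in Tim4KO. Eef1g, of the elongation factor 1 complex, rose from 216 ± 7.95 to 403 ± 78.5 CPM in WT (log2 change 0.90, edgeR adjusted p = 0.000834) and from 210 ± 39.8 to 343 ± 29.8 CPM in Tim4KO (0.71, edgeR adjusted p = 0.00741). Eif3l and Eef1d also rose in both genotypes. The WT count was 4 without WT naive 2, WT naive 3 or WT ID8 2, and the Tim4KO count was 1 without Tim4KO naive 2, Tim4KO naive 3, Tim4KO ID8 1 or Tim4KO ID8 2.

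Of 16 genes around mTORC1 and MYC, 5 rose and 1 fell in WT and 1 rose in Tim4KO. The share called in WT, 37.5%, was near the 31.8% of all genes, and the share in Tim4KO, 6.25%, was below their 16.6%. Larp1, which binds TOP tracts, went from 114 ± 7.99 to 208 ± 43.0 CPM in WT (log2 change 0.86, edgeR adjusted p = 0.000913) and from 140 ± 18.7 to 189 ± 13.3 CPM in Tim4KO (0.43, edgeR adjusted p = 0.0697). Myc, a transcription factor that drives ribosome production, went from 56.9 ± 15.3 to 138 ± 40.6 CPM in WT (1.27, edgeR adjusted p = 0.0113). Tbc1d7, a subunit of the TSC complex that restrains mTORC1, rose in both genotypes, by 1.07 and 0.98, with edgeR adjusted p-values of 0.000312 and 0.00125. The Tim4KO count was 2 without Tim4KO naive 1 and 3 without WT ID8 3. The cell cycle genes that set WT ID8 3 apart were higher in challenged libraries (393 to 2395 CPM) than in naive ones (186 to 381), and their part in the changes of all these lists was not tested.

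**Figure D5:**
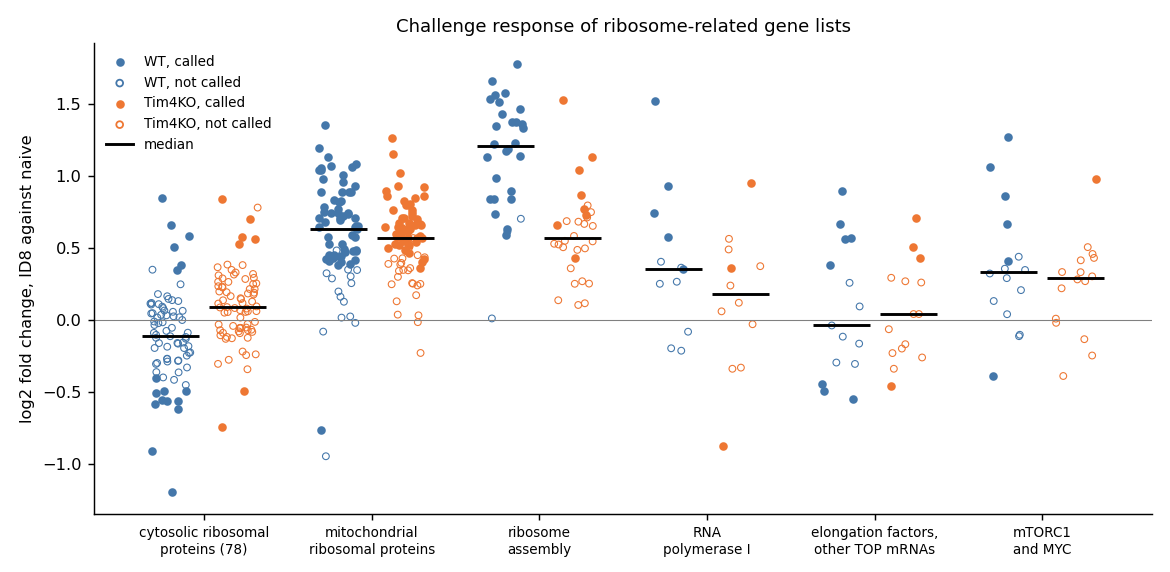
Log2 fold changes (edgeR) after challenge for the 78 cytosolic ribosomal proteins and 5 related gene lists, in WT and in Tim4KO. Filled points passed an adjusted p under 0.05, open points did not, and lines are medians. The assembly factors (medians 1.21 and 0.57) and the mitochondrial ribosomal proteins (0.63 and 0.57) lie above the cytosolic ribosomal proteins (-0.11 and 0.09).

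Outside the named family, the genes whose log2 CPM followed the median ribosomal protein most closely over the 12 libraries were Erc2 (r = 0.955), Smim11 (0.925), Ssr4 (0.920), Sub1 (0.920) and Nop10 (0.887), out of 15148 genes compared. Ssr4 encodes part of the translocon-associated complex of the endoplasmic reticulum, and Nop10 is a partner of Nhp2. Erc2 was low, at 6.53 to 15.2 CPM, against 186 to 304 CPM for Ssr4.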

How the data were processed

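Raw counts of reads per Ensembl gene were deposited by the authors as 1 table with a column for each of the 12 libraries, and 0 columns were left unmatched. Per the submitters' processing notes, FastQC and STAR 2.5 and the builds mm10 and, for some samples, GRCm39 were named, without roles; the counting program is not given in the sources used here. RNA came from the RNeasy micro kit and libraries from the SMART-Seq mRNA LP kit, per the labels' protocols. The count table holds no molecular identifiers. Symbols came from GENCODE vM21 (52081 of 57010 identifiers).

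The test was edgeR's (version 4.0.16, R 4.3.3): filterByExpr left 15943 genes, all 78 ribosomal protein genes among them, TMM factors ranged from 0.896 to 1.09, and 1 robust quasi-likelihood model of the 4 groups (8 residual degrees of freedom) gave 5 two-sided comparisons, adjusted by Benjamini-Hochberg over all genes. Standard errors were derived from each log2 change and its F statistic. The script was tested on simulated counts. Background is the summed CPM, without TMM factors, of 1714 olfactory and vomeronasal receptor genes with a mean of at most 1 CPM. A list is described by its counts and median, without a test of the list. Alternatives used DESeq2 1.42.0 and limma 3.58.1 voom, other scaling factors, no filter, 2 groups only, covariates and each library left out. Sequences were aligned with Biopython 1.88.

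The members and the lists were chosen with earlier results of these data known. Named for each comparison were up to 8 called genes per direction with the largest change, the 5 smallest p where fewer than 5 were called, the stalk genes, paralogues, copies of Rps3a1, the 3 highest and 3 lowest per length, and up to 4 genes per list; Rpl32, Rpl13 and Rps9 were added after their values were seen, as were Rps6, Rpl5, Rpl11 and Rps15. The libraries' numbers in the labels were to be read as pairs where every same-numbered pair had r over 0.1. That held in the WT challenge comparison (0.102, 0.107 and 0.307 over 10229 genes), yet the main fit had no replicate block there either. Between naive genotypes r was 0.324, 0.0677 and 0.136. The block was fitted only as an alternative, and differently numbered pairs were not compared. Results for some single genes are not reported here.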

Additional observations from a re-analysis of the deposited data

How the results depend on the processing

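Of the results reported for single genes, 1579 of the values under an alternative kept their direction and side of the threshold, 153 no longer passed, 21 newly passed and 0 reversed. Rps27, Rps27l, Rpl7l1 and Rpl35 in WT, and Rps27, Rps27l and Rps2 in Tim4KO, were the ribosomal protein genes among those named that passed under all 22 alternatives. Genes called after challenge numbered 39 in WT with upper-quartile factors (median change -0.35) and 11 when only the WT groups were fitted; DESeq2's test called 2 between genotypes in ID8 cells. Leaving out 1 library gave 7 to 25 calls in WT, where 19.8% to 41.6% of all genes were called. It gave 4 to 19 in Tim4KO (median 0.024 to 0.26), where 7.04% to 20.7% of all genes were. Between genotypes in ID8 cells it gave 0 to 2, where 0.00575% to 5.74% of all genes were. The interaction median ran from 0.083 to 0.34. With the replicate block, WT gave 15 calls, Tim4KO 6 and the other comparisons 0, and the naive genotype call of Rps3a2 was lost (edgeR adjusted p = 0.0939); every same-numbered pair exceeded r = 0.1 in the WT challenge and in no other comparison, where the lowest r was -0.0765. The background covariate gave 2 higher and 17 lower in WT, where 21.4% of all genes were called. For the lists, mitochondrial ribosomal proteins gave 35 calls in WT with upper-quartile factors, 39 with only 2 groups and 37 with the background covariate, and 41 to 65 (WT) and 18 to 59 (Tim4KO) with a library left out. Assembly factors in Tim4KO gave 20 without the filter, 21 with only 2 groups, 19 with the background covariate and 3 to 23 with a library left out. RNA polymerase I gave 2 in WT with only 2 groups, and 2 to 5 and 0 to 4 with a library left out. The TOP list gave 5 in WT and 2 in Tim4KO without the filter, and 4 to 9 and 1 to 5. The mTORC1 and MYC list gave 3 in WT with the background covariate; in Tim4KO it gave 2 with DESeq2 size factors, upper-quartile factors, DESeq2's test or the background covariate, 3 with only 2 groups, and 1 to 3 with a library left out. The cause was not tested. Library totals put 3 counts at 0.129 to 0.408 CPM, a limit that bears most on Rpl36al, the gene with the fewest counts; it covers counting error only.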
